A study of Mus musculus with 27 samples.

Results

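NOD/ShiLtJ, the inbred mouse strain known for spontaneous autoimmune diabetes, was compared with 8 other inbred strains in RNA from hepatocytes, the main metabolic cell of the liver. The NOD/ShiLtJ side held the 3 libraries whose labels name that strain, of 27 in all, and the other side held 24 libraries, 3 from each of A/J, DBA/2J, C57BL/6J, NZO/HlLtJ, 129S1/SvImJ, PWK/PhJ, CAST/EiJ and WSB/EiJ. All mice were female and aged 12 weeks, and the labels record no treatment and no engineered allele. The wider study related histone marks, DNA methylation and expression across these strains, of which expression is described here. WSB/EiJ, CAST/EiJ and PWK/PhJ descend from wild-caught mice, and the other 5 are classical laboratory strains.

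NOD mice develop T cell infiltration of the pancreatic islets, more often in females, and the main genetic contribution comes from their major histocompatibility complex (MHC), with an unusual class II I-A molecule and no I-E molecule. NOD is also one of the strains that lack circulating complement C5, the product of Hc. The liver is not the target organ of the disease, but its hepatocytes make most plasma complement, clear insulin and carry much of the strain variation in drug and steroid metabolism. The labels give neither the glucose level of the mice nor the hour at which cells were collected.

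The hepatocyte label held against its markers: all 12 hepatocyte markers were measured, and their summed level was 160840 to 168730 CPM, the counts scaled to library size, in NOD/ShiLtJ against 130980 to 386560 in the other libraries. Summed markers of Kupffer cells, the liver macrophages, were 79.3 to 90.5 CPM in NOD/ShiLtJ, inside the range of 36.4 to 450.2 in the others. Liver endothelial markers, at 144.0 to 261.8 CPM, and stellate cell markers, at 55.5 to 89.2 CPM, also lay inside the ranges of the other strains. Library totals ran from 17015956 to 35078511 estimated counts, so that 1 count was worth 0.0253 to 0.0516 CPM. Across genes, the 3 NOD/ShiLtJ libraries correlated with each other at 0.979 to 0.981, and with other strains at a mean of 0.948 for NZO/HlLtJ down to 0.894 for PWK/PhJ; genes are not independent replicates.

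Of 14482 genes tested, 1333 were higher and 829 lower in NOD/ShiLtJ than the mean of the 8 other strains, each strain weighted equally (edgeR quasi-likelihood test, Benjamini-Hochberg adjusted p under 0.05). These are 9.2% and 5.72% of the genes tested, and 14.9% for both directions. A change of at least 2-fold was fitted for 682 of the higher genes (4.71%) and 348 of the lower ones (2.4%). Most called genes were not at an extreme of the strain order: 543 of the higher genes had their highest strain mean in NOD/ShiLtJ and 451 of the lower genes their lowest, while 1168 lay inside the range of the other strains. Against single strains, called genes numbered 1426 for 129S1/SvImJ (9.85%), 1479 for DBA/2J (10.2%) and 1510 for NZO/HlLtJ (10.4%), and rose to 3992 for CAST/EiJ (27.6%) and 4020 for PWK/PhJ (27.8%). The contrast averages log levels, so a strain with almost no transcript weighs heavily in it. Among 807 tested genes with no count in at least 1 other strain, 222 were called higher and 0 lower (edgeR), and 48 genes called higher had a lower mean CPM in NOD/ShiLtJ than the average of the other strain means. With limma on log2 CPM, an alternative chosen after seeing the data, 2236 genes were called and 50.6% of them were higher, against 61.7% in the edgeR fit.

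**Figure D1:**
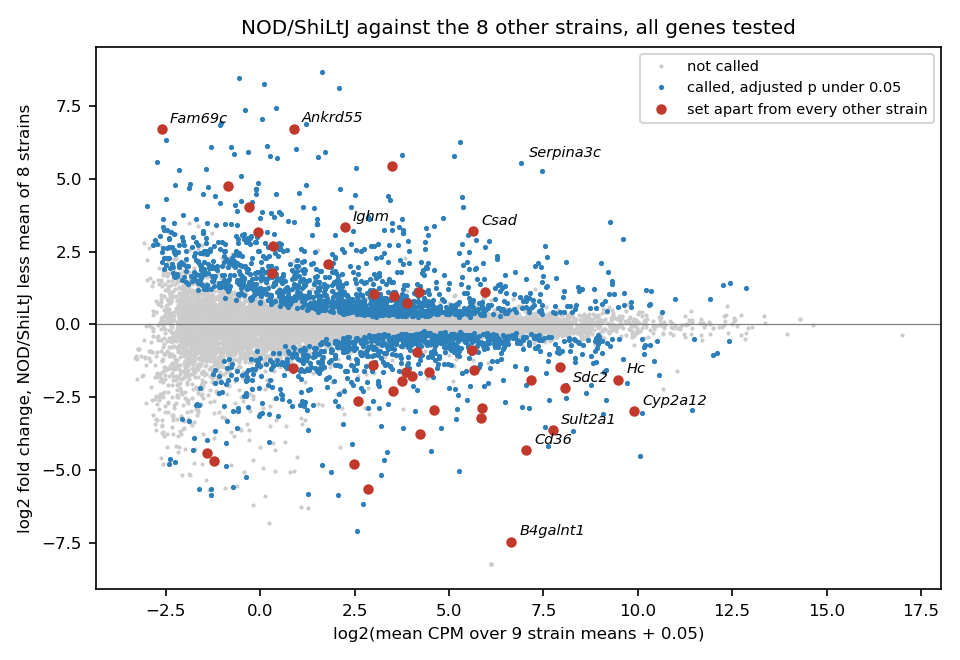
Log2 fold change of NOD/ShiLtJ against the mean of the 8 other strains (vertical axis) by mean level over the 9 strains (horizontal axis, log2 of CPM + 0.05), with a point for each of 14482 genes. Grey genes were not called, blue genes were called at an adjusted p under 0.05, and the 43 red genes were set apart from every other strain; B4galnt1 lies lowest of the red genes.

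Genes particular to NOD/ShiLtJ were taken as those set apart from every other strain. A gene was set apart when it was called in the contrast, was called in the same direction against each of the 8 strains singly, and had all 3 NOD/ShiLtJ libraries above, or all below, the 24 others. This held for 43 genes, 0.297% of those tested, with 16 higher (0.11%) and 27 lower (0.186%). Without the single-strain tests, 94 genes had all NOD/ShiLtJ libraries above the others (0.649%) and 71 had all below (0.49%). The same rule set apart 24 higher and 19 lower genes in DBA/2J, 20 and 32 in 129S1/SvImJ, 38 and 53 in NZO/HlLtJ, and 401 and 365 in CAST/EiJ, so the NOD/ShiLtJ set was among the smallest. Of the 43, 37 were protein coding, beside 88.5% of all genes tested. The estimated counts were whole numbers in at least 14 libraries for 11 of the higher and 17 of the lower genes, and values of the remaining genes are uncertain because reads were divided between similar or overlapping genes.

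**Figure D2:**
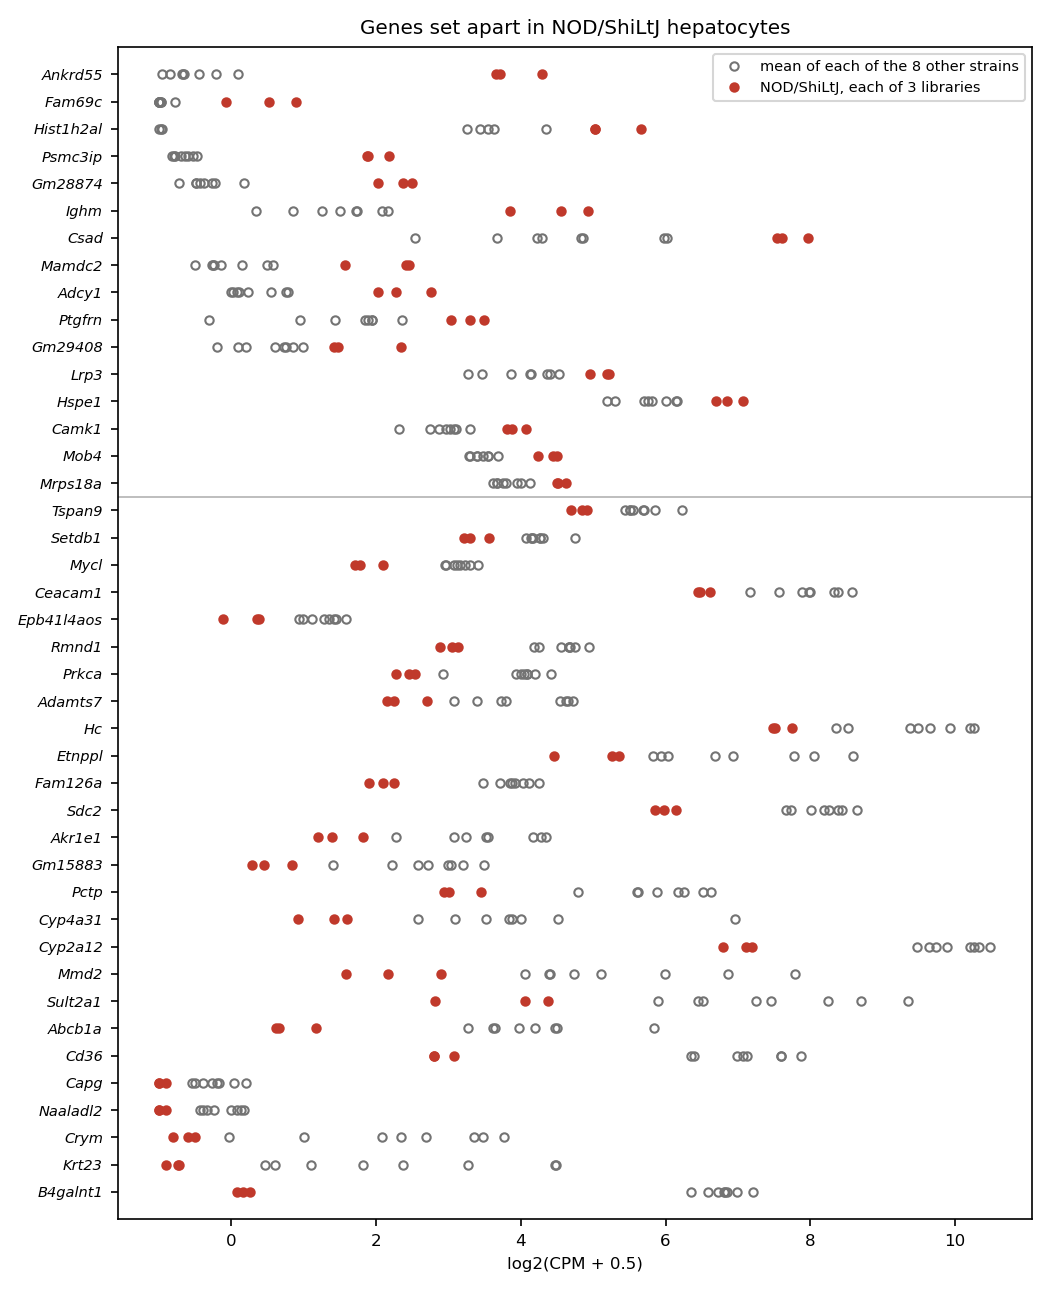
Levels of 42 of the 43 set-apart genes (horizontal axis, log2 of CPM + 0.5), with filled points for each of the 3 NOD/ShiLtJ libraries and open points for the mean of each other strain. Genes above the grey line were higher and those below it lower in NOD/ShiLtJ; Ankrd55 and B4galnt1 show the widest gaps to the nearest strain.

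B4galnt1, the enzyme that makes the gangliosides GM2 and GD2 from simpler sialylated lipids, was all but missing from NOD/ShiLtJ hepatocytes. The gene (ENSMUSG00000006731) lies on chromosome 10 at 127165225 to 127172330, plus strand, in GRCm38. Its 3 NOD/ShiLtJ libraries held 0.617, 0.693 and 0.557 CPM, or 16 to 20 counts each. In the 24 other libraries it ran from 76.0 through a median of 104 to 162 CPM. No strain came near the NOD/ShiLtJ level, since the lowest strain mean was 81.1 ± 5.02 CPM in NZO/HlLtJ (SD, n = 3). The log2 fold change was -7.46 ± 0.26 (SE), with an edgeR adjusted p of 1.52e-16.

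Cd36, the scavenger receptor that takes up long-chain fatty acids, was the next lower abundant gene. On chromosome 5 at 17781690 to 17888801, minus strand (ENSMUSG00000002944), it was measured at 6.46, 7.90 and 6.48 CPM in NOD/ShiLtJ. The other libraries ran from 46.3 through 132 to 307 CPM. The strain nearest to NOD/ShiLtJ was DBA/2J, with 81.4 ± 42.3 CPM, and WSB/EiJ was highest with 235 ± 72.1 CPM (SD, n = 3 each). Its log2 fold change was -4.32 ± 0.33 (edgeR adjusted p 4.75e-10).

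Syndecan 2 and complement C5 were also below every other library. Sdc2, a heparan sulfate proteoglycan of the hepatocyte surface, had 57.2, 62.3 and 70.0 CPM in NOD/ShiLtJ and from 185 through 284 to 431 CPM elsewhere (log2 fold change -2.18 ± 0.14, edgeR adjusted p 2.43e-11). Hc, on chromosome 2 at 34983331 to 35061438, minus strand, had 182, 178 and 214 CPM against 288 through 759.7 to 1418 CPM in the other libraries. A/J and DBA/2J, which are also known to lack circulating C5, were nearest for Hc at 369 ± 64.7 and 328 ± 35.5 CPM (SD, n = 3 each). NOD/ShiLtJ was lower still than both, with log2 differences of -0.94 and -0.78 from A/J and DBA/2J and edgeR adjusted p-values of 0.00327 and 0.0188. Against all 8 strains the log2 fold change of Hc was -1.89 ± 0.19 (edgeR adjusted p 4.23e-08).

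Pctp, Etnppl and Mmd2 were also set apart downward. Pctp, which carries phosphatidylcholine between membranes, had 7.14, 10.4 and 7.53 CPM in NOD/ShiLtJ and 20.9 to 122 CPM elsewhere (log2 fold change -2.85 ± 0.26). Etnppl, which breaks down phosphoethanolamine, had 40.3, 21.4 and 37.7 CPM against 45.9 to 426 CPM (-1.92 ± 0.23). The set-apart rule allows no overlap, but the highest Etnppl library of NOD/ShiLtJ was close to the lowest of the others. Mmd2, a membrane protein of the progestin and adipoQ receptor family, had 6.91, 3.98 and 2.51 CPM against 10.97 to 274 CPM (-3.23 ± 0.32). Akr1e1, an aldo-keto reductase, changed by -2.28 ± 0.28, Fam126a, part of a complex that keeps a phosphoinositide kinase at the plasma membrane, by -1.94 ± 0.17, and the protein kinase C gene Prkca by -1.63 ± 0.12 on the log2 scale. Prkca had 4.32 to 5.30 CPM in NOD/ShiLtJ, and its nearest strain was A/J at 7.07 CPM.

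Further lower genes were less abundant or changed less. The membrane organizer Tspan9 changed by -0.87 ± 0.15 and the transcription factor Mycl by -1.41 ± 0.26 on the log2 scale, and the noncoding RNA Epb41l4aos was also lower. Krt23, a keratin, had 1 to 3 counts per NOD/ShiLtJ library where the strain means elsewhere reached 21.99 CPM in CAST/EiJ, and no fold is given for it. The thyroid hormone binding protein Crym had 2 to 6 counts in NOD/ShiLtJ and strain means of 0.477 CPM in C57BL/6J to 13.1 CPM in PWK/PhJ. Naaladl2 and Capg had 0 or 1 count in each NOD/ShiLtJ library, but no other library exceeded 0.930 CPM for Naaladl2 or 1.04 CPM for Capg.

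Cyp2a12, Sult2a1, Abcb1a and Cyp4a31 were set apart downward and carry the uncertainty of divided reads in all 27 libraries. The lists of drug-metabolizing genes, given further on, had calls in both directions. Cyp2a12, a cytochrome P450 that hydroxylates steroids and bile acids, had the largest loss in CPM of any set-apart gene: 146, 137 and 110.3 CPM in NOD/ShiLtJ against 658 through 1011 to 1571 CPM in the others. Its log2 fold change was -2.97 ± 0.19 (edgeR adjusted p 1.68e-11), and NZO/HlLtJ was the nearest strain with 708 ± 50.3 CPM (SD, n = 3). Sult2a1, a female-biased sulfotransferase of bile acids and steroids, had 16.2, 20.2 and 6.55 CPM against 23.8 to 844 CPM (-3.63 ± 0.54). Abcb1a, the drug efflux pump P-glycoprotein, had 1.75, 1.04 and 1.08 CPM against 7.90 to 63.7 CPM (-3.77 ± 0.24). Cyp4a31, of the family that hydroxylates the ends of fatty acids, had 1.39 to 2.53 CPM against 4.24 to 180.3 CPM (-2.96 ± 0.31). By the set-apart rule, none of these 4 genes had a NOD/ShiLtJ library inside the range of the others.

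Ceacam1, a bile canaliculus protein known to promote insulin clearance by hepatocytes, was lower by a smaller factor. It had 97.1, 86.7 and 88.7 CPM in NOD/ShiLtJ and 134 through 254 to 452 CPM elsewhere, with a log2 fold change of -1.48 ± 0.15 (edgeR adjusted p 5.54e-08; divided reads in all 27 libraries). Rmnd1, which serves mitochondrial translation, changed by -1.62 ± 0.13, the protease Adamts7 by -1.77 ± 0.21 and Setdb1, a histone H3 lysine methyltransferase, by -0.93 ± 0.11 on the log2 scale; their reads were divided in 26, 20 and 19 libraries and their values are uncertain.

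Among genes set apart upward, Ankrd55, an ankyrin repeat gene whose human counterpart lies in an autoimmune risk locus, stood furthest out. On chromosome 13 at 112288451 to 112384002, plus strand (ENSMUSG00000049985), it had 12.1, 19.1 and 12.6 CPM in NOD/ShiLtJ. No other library exceeded 0.839 CPM, and the median of the 24 was 0.120 CPM. The fitted log2 fold change of Ankrd55 was 6.73 ± 0.31 (edgeR adjusted p 5.36e-14), a size that rests on other strains near 0. Csad, the decarboxylase that makes the taurine precursor hypotaurine from cysteine sulfinate, had 186, 195 and 250.4 CPM against 5.20 through 21.0 to 140.3 CPM. Csad varied widely within C57BL/6J (64.4 ± 66.1 CPM) and 129S1/SvImJ (62.5 ± 48.1 CPM; SD, n = 3 each), the strains nearest to NOD/ShiLtJ, whereas NOD/ShiLtJ itself was at 211 ± 34.7 CPM (log2 fold change 3.21 ± 0.32, edgeR adjusted p 4.90e-08).

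Ighm, the heavy chain of immunoglobulin M, was higher in NOD/ShiLtJ. It had 13.96, 29.9 and 22.996 CPM, or 430 to 864 counts, against 0.446 through 2.08 to 5.83 CPM, or 14 to 146 counts, elsewhere (log2 fold change 3.35 ± 0.32, edgeR adjusted p 1.83e-08). In the same NOD/ShiLtJ libraries Cd79a had 0 to 3 counts, Cd79b 1 to 11, Ms4a1 1 to 7, Pax5 0 to 2 and the joining chain Jchain 4 to 11. Jchain had 2 to 45 counts in the others. Of 10 B cell markers, 4 could be tested, and Ighm was the 1 called.

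The remaining genes set apart upward covered a wide range of levels. Hspe1, the mitochondrial co-chaperonin, had 103.5, 133 and 115 CPM against 28.8 to 85.1 CPM (1.12 ± 0.15 on the log2 scale), and Lrp3, a member of the lipoprotein receptor family, 35.9, 36.6 and 30.5 CPM against 5.48 to 25.5 CPM (1.13 ± 0.14). The calcium-dependent kinase Camk1 changed by 1.05 ± 0.11 and the mitochondrial ribosome gene Mrps18a by 0.74 ± 0.10. Ptgfrn, at 7.67 to 10.7 CPM, the adenylate cyclase Adcy1, at 3.55 to 6.24 CPM, and Mamdc2, at 2.47 to 4.99 CPM, were below 10 CPM in NOD/ShiLtJ on average but above all other libraries. Mob4, a subunit of a phosphatase and kinase complex, changed by 0.98 ± 0.14, Psmc3ip, a recombination factor, had 3.17 to 4.02 CPM against at most 0.414 CPM, and both carry divided reads, as do the noncoding genes Gm28874 and Gm29408 and the pseudogene Hist1h2al. Fam69c had 13 to 42 counts in NOD/ShiLtJ and at most 0.177 CPM elsewhere. The fitted log2 fold changes of Fam69c (6.70 ± 0.64), Hist1h2al (5.45 ± 0.19), Psmc3ip (4.77 ± 0.39) and Gm28874 (4.04 ± 0.33) were larger than that of Csad and rest on strains with few or no counts.

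The 43 genes were spread over 16 chromosomes, with 6 of 1078 tested genes on chromosome 7 and 5 of 1154 on chromosome 11. None was among the 773, 480, 438 and 445 genes tested on 8, 14, 16 and X. Over all chromosomes the share was 0.297%. Hspe1 and Mob4 are near neighbours on chromosome 1, with starts 43099 bases apart on the same strand, and both were higher. Cyp2a12 and the antisense gene Gm15883 on chromosome 7 start 95400 bases apart, and both were lower. The remaining close pairs were Adamts7 and Gm29408 on chromosome 9 (775911 bases) and Krt23 and Psmc3ip on chromosome 11 (1613849 bases), which moved in opposite directions, and Ceacam1 and Cyp2a12 (1567374 bases), which were both lower. All 43 remained called in every fit that left out 1 library, but fewer met the whole rule: 32, 28 and 29 stayed set apart without NOD/ShiLtJ replicate 1, 2 and 3, and 33 to 41 without any 1 of the other libraries.

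Beyond single genes, 37 lists of liver pathways and cell type markers were described by the number of tested members called. The background for these counts is 9.2% of genes higher and 5.72% lower, and the median log2 fold change of all genes tested was 0.02. In the fit against the 5 other classical strains alone, 1567 of 14482 genes were called, 57.6% of them higher. Among lists with at least 5 tested members, the largest shares called were in the sex-dependent (8 of 28 higher, 7 lower), serine protease inhibitor (9 of 28 higher, 5 lower), cytochrome P450 (11 of 43 higher, 9 lower), carboxylesterase (4 of 16 higher, 3 lower), MHC class II (4 of 9 lower), clock (7 of 19 lower, 1 higher), class I (5 of 24 higher, 4 lower) and cell cycle lists (8 of 22 higher). No member was called in either direction among 26 coagulation, 24 apolipoprotein, 21 lipogenesis and 12 tested diabetes locus genes (edgeR). The diabetes locus list left out the MHC class II genes, which formed a list of their own. At an unadjusted p under 0.05 these lists held 2 higher and 2 lower, 4 and 3, 1 and 0, and 1 and 2 genes, and DESeq2 called 1 lower coagulation gene and 2 lower apolipoprotein genes, with 1 lower apolipoprotein gene by limma. Over all 14482 genes tested, 3945 had an unadjusted p under 0.05. With Kupffer cell and endothelial marker levels as covariates, edgeR called 2 coagulation genes higher and 3 lower. That fit also called 1 apolipoprotein gene higher and 2 lower, and 1 lipogenesis and 1 diabetes locus gene lower. Against the 5 other classical strains, 2 coagulation genes were higher and 1 apolipoprotein gene lower.

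**Figure D3:**
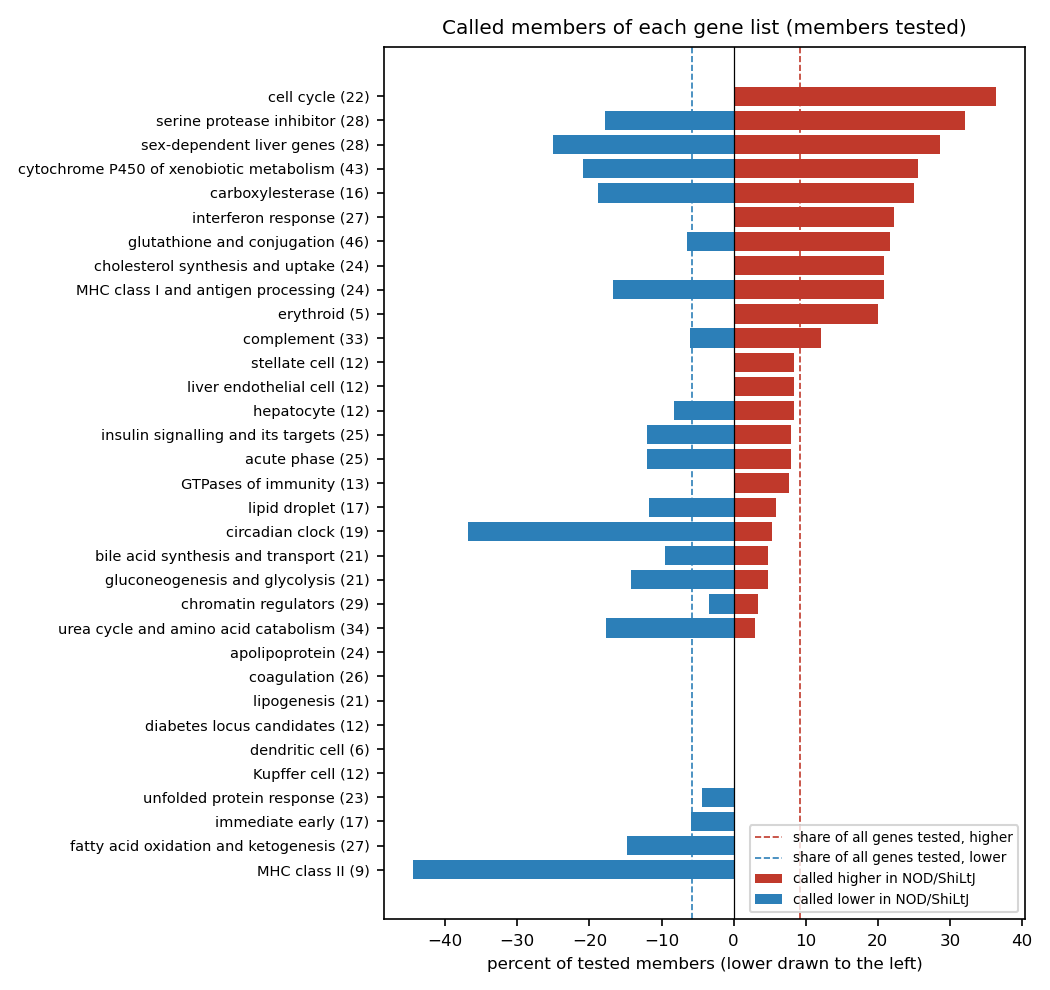
Share of the tested members of each gene list that was called higher (red, to the right) or lower (blue, to the left) in NOD/ShiLtJ, with the number tested in brackets. Dashed lines mark the shares of all genes tested, 9.2% higher and 5.72% lower; only lists with 5 or more tested members are drawn.

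MHC class II genes, which present peptides from outside the cell and are read mainly from macrophages, dendritic and B cells in liver, had their lowest summed level in NOD/ShiLtJ of the 9 strains. Their summed level was 9.64, 11.3 and 14.6 CPM in NOD/ShiLtJ and from 11.8 through 50.9 to 295 CPM in the others, so the groups overlapped slightly. Of 9 members tested, 4 were lower and 0 higher, with a median log2 fold change of -2.11 (edgeR; by limma 5 lower and 0 higher). The I-A alpha chain gene H2-Aa had 0.876, 0.970 and 1.498 CPM against 0.701 through 5.21 to 73.3 CPM (-2.73 ± 0.65, edgeR adjusted p 0.00451). The invariant chain gene Cd74 had 5.26, 6.13 and 7.91 CPM against 6.85 through 25.9 to 143 CPM (-2.17 ± 0.53), and the I-A beta gene H2-Ab1 changed by -2.11 ± 0.59. PWK/PhJ was the highest strain for these 3 genes. H2-DMb1, a peptide loading chaperone with divided reads in 25 libraries, had 1 to 4 counts in NOD/ShiLtJ. Against the 8 strains singly, H2-Aa was called for 4, and Cd74, H2-Ab1 and H2-DMb1 for 3 each. None of these genes was called against NZO/HlLtJ, DBA/2J, WSB/EiJ or CAST/EiJ. H2-Eb1, the I-E beta gene, had 0.866 to 2.20 CPM against 0.046 to 20.1 CPM and was not called.

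The I-E alpha gene, listed as the pseudogene H2-Ea-ps, had 0 to 1 count in each NOD/ShiLtJ library. It was also at 0 in all libraries of C57BL/6J, 129S1/SvImJ and PWK/PhJ, while NZO/HlLtJ averaged 4.26 ± 2.88 CPM, A/J 6.56 ± 6.76 and CAST/EiJ 3.06 ± 1.21 (SD, n = 3 each). The edgeR contrast gives no usable value for such a gene (adjusted p 1), and its absence was not particular to NOD/ShiLtJ. Of 12 Kupffer cell markers 0 were called (edgeR; 1 lower at an unadjusted p under 0.05, 0 by DESeq2 and limma), with a median log2 fold change of -0.51. Dendritic cell markers summed to 2.99 to 3.53 CPM in NOD/ShiLtJ against 2.43 to 8.94, with 0 of 6 called by edgeR, DESeq2 or limma, 0 at an unadjusted p under 0.05 and a median of -0.45. The part of cell content in the class II values was not tested. With the mean levels of the Kupffer cell and endothelial markers as covariates, 4 class II genes were called lower. These covariates held no dendritic or B cell markers, so that fit cannot decide the part of cell content. In bulk RNA, fewer cells of a type and less RNA per cell cannot be told apart. Without any 1 of the NOD/ShiLtJ libraries, 2 class II genes passed.

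Class I genes, which hepatocytes themselves express, moved in both directions. Of 24 members of the class I and antigen processing list, 5 were higher and 4 lower, with a median of 0.15. The higher count was 3 without NOD/ShiLtJ replicate 1 or replicate 2 and 8 without A/J replicate 2. H2-K1, a classical class I heavy chain, had 150, 191 and 135 CPM in NOD/ShiLtJ, against 181 through 421 to 2248 CPM (-1.57 ± 0.22, edgeR adjusted p 1.08e-05), with the nearest strain mean in CAST/EiJ at 215 ± 27.03 CPM (SD, n = 3). The nonclassical H2-T23 had 29.3, 34.4 and 26.8 CPM against 35.2 through 204 to 488 CPM (-2.61 ± 0.27), and A/J, at 46.5 ± 12.2 CPM, was not told apart from NOD/ShiLtJ (adjusted p 0.129). H2-T10 was higher, at 44.2, 45.1 and 37.4 CPM (2.52 ± 0.15), but A/J was at 49.1 ± 16.0 CPM. H2-Q2 had the largest fold of the list (3.24 ± 0.20), at 18.9, 19.1 and 14.5 CPM, but NZO/HlLtJ, DBA/2J and PWK/PhJ were higher, at means of 22.7 to 32.3 CPM, and 4 strains were below 0.5 CPM. The classical gene H2-D1 changed by 0.57 ± 0.17, while the class I light chain B2m was at 1248 ± 141 CPM against a mean of 1148 and was not called (adjusted p 0.534). The H2 heavy chain genes named here had divided reads in 25 to 27 libraries, B2m in none. Whether strain differences in MHC sequence changed the assignment of reads was not tested.

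**Figure D4:**
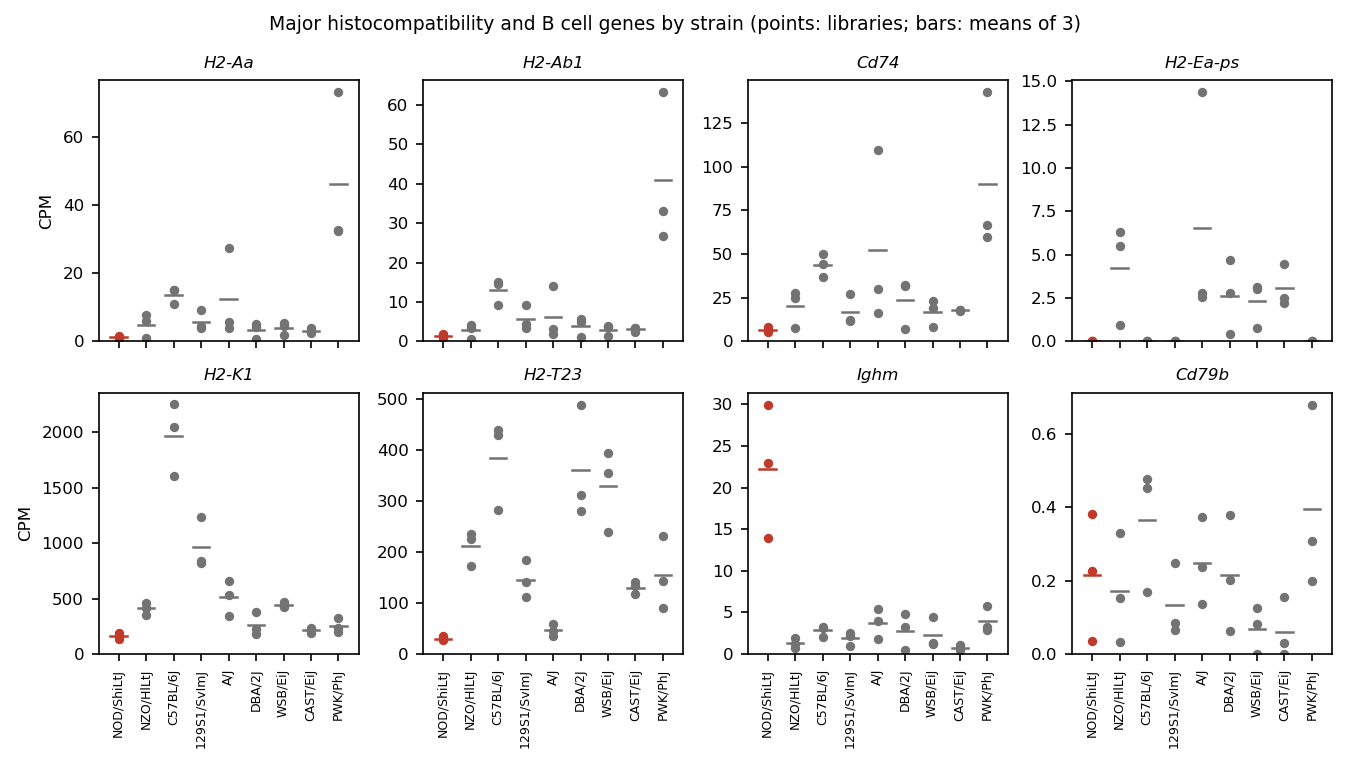
CPM of MHC class II (H2-Aa, H2-Ab1, Cd74, H2-Ea-ps), class I (H2-K1, H2-T23) and B cell genes (Ighm, Cd79b) by strain, with a point for each library and a bar at the mean of 3. NOD/ShiLtJ (red) is lowest for H2-Aa and far highest for Ighm, while Cd79b, at 1 to 11 counts, lies among the other strains.

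Of 33 complement genes tested, 4 were higher and 2 lower, Hc included, with a median of -0.06; these shares are near the background of 9.2% and 5.72%. C6, which joins C5b in the membrane attack complex, had 2.34, 1.49 and 2.54 CPM against 1.92 through 6.69 to 120.2 CPM (-2.13 ± 0.37, edgeR adjusted p 0.000175). It overlapped with 129S1/SvImJ, whose mean was 2.18 ± 0.375 CPM (SD, n = 3). C9, the pore-forming component, was higher, with 501, 412 and 502 CPM against 88.1 through 236 to 473 CPM (1.13 ± 0.17), and DBA/2J was close at 426 ± 44.3 CPM. The duplicated proteases C1rb and C1s2 were called higher, with strain means of 17.3 and 31.6 CPM, but NZO/HlLtJ, C57BL/6J and 129S1/SvImJ were near 0 for both, and A/J and WSB/EiJ were above NOD/ShiLtJ for both (divided reads in 24 or more libraries). C3, the central component, was at 12636 ± 1648 CPM in NOD/ShiLtJ against a mean of 16303 and was not called (adjusted p 0.277).

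Some genes of the circadian clock were lower in NOD/ShiLtJ, and most were not called. The clock is a feedback loop in which CLOCK and BMAL1 (Arntl) act on E-box elements of genes for their own repressors, and in which DBP, TEF and HLF act on D-box elements. Of 19 clock genes tested, 7 were lower, 1 was higher and 11 were not called, with a median of -0.19. Dbp had 0.552, 0.589 and 0.557 CPM in NOD/ShiLtJ against 0.515 through 3.44 to 50.02 CPM (-3.49 ± 1.14, edgeR adjusted p 0.0398). Nr1d1, the repressor REV-ERB alpha, had 7.72, 18.7 and 16.0 CPM against 9.12 through 43.3 to 102 CPM (-1.59 ± 0.36, edgeR adjusted p 0.00314). Both overlapped NZO/HlLtJ, which averaged 0.943 ± 0.309 CPM for Dbp and 10.9 ± 2.41 CPM for Nr1d1 (SD, n = 3 each). Dbp and Nr1d1 had divided reads in all 27 libraries and are uncertain.

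Tef, a partner of Dbp, had 18.0, 22.6 and 23.2 CPM, below all other libraries, which ran from 28.1 through 42.7 to 102 CPM (-1.16 ± 0.31, edgeR adjusted p 0.0109), but it was called against 4 of the 8 strains singly. The repressor gene Per3 had 1.201, 1.66 and 1.01 CPM against 1.14 through 4.43 to 22.5 CPM (-1.97 ± 0.64, edgeR adjusted p 0.0392). Nr1d2, the paralog of Nr1d1, changed by -0.72 ± 0.21 and the repressor Cry2, with divided reads in 25 libraries, by -0.37 ± 0.11, and Bhlhe41, another repressor, had 0 or 1 count in each NOD/ShiLtJ library. Cry1, whose transcript peaks at another phase than Dbp, was higher at 13.7, 8.87 and 9.30 CPM against 2.75 through 6.39 to 10.9 CPM (0.83 ± 0.22), with NZO/HlLtJ next at 9.63 ± 2.04 CPM. Arntl, at 18.7 ± 0.792 CPM against a mean of 12.6, was not called (0.66 ± 0.26, adjusted p 0.102). Libraries within the other strains differed widely, as in A/J, where Dbp averaged 18.4 ± 27.4 CPM (SD, n = 3). The clock count rested on each NOD/ShiLtJ library: it fell from 7 lower genes to 1 without replicate 1, 1 without replicate 2 and 3 without replicate 3, and was 2 against the 5 other classical strains alone. The count of higher clock genes was 0 without NOD/ShiLtJ replicate 1 and 4 without A/J replicate 1. Dbp lost its call in 10 and Per3 and Bhlhe41 in 7 of 46 alternative fits. Collection time is not in the labels, so its part in these values was not tested.

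Promoters of lower clock genes that hold a clock motif are shown because the clock acts through such short motifs. The E-box CACGTG and the D-box TTANGTAA were searched on both strands from 250 bases before to 50 after each start in RefSeq promoters of GRCm38.p6. The E-box was in 7.15% and the D-box in 2.32% of 32851 promoters of that length. Of the 19 clock genes tested, 16 had an entry, 5 with an E-box and 1 with a D-box, and among the 7 lower genes 2 had an E-box (Tef, Bhlhe41) and 1 a D-box (Per3). The lines below run in the direction of the gene, with the motif in capitals: a pair of D-boxes in Per3 (chr4:151044616-151044915, minus strand) and an E-box each in Tef (chr15:81802423-81802722, plus strand) and Bhlhe41 (chr6:145865371-145865670, minus strand).
Per3: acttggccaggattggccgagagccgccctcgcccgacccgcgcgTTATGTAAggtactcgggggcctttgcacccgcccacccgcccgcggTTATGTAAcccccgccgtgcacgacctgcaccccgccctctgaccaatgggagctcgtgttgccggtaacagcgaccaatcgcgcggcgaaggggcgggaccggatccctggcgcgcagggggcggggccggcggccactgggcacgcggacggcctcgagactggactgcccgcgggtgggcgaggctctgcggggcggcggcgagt
Tef: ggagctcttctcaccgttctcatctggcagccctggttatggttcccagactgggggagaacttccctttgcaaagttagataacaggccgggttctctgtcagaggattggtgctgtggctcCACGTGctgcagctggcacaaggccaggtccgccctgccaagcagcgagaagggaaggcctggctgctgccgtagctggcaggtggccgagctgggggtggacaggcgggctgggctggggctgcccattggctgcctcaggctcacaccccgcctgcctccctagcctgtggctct
Bhlhe41: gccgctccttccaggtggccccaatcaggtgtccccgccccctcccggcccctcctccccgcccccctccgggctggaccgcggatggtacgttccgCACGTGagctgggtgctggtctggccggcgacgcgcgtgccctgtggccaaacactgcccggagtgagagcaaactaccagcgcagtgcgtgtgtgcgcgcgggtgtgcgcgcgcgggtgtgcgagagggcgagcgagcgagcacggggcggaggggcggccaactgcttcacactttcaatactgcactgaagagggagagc
The D-boxes of Per3 begin 205 and 158 bases before its start, the E-box of Tef 127 bases before and that of Bhlhe41 153 bases before. A second Tef promoter entry also held an E-box, 138 bases before its start, and Cry1, the gene that was higher, held an E-box 60 bases before its start. Per1 also held an E-box and Ciart held 3, and neither gene was called. E-boxes were thus not confined to the lower genes. A match describes these letters and shows no binding.

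**Figure D5:**
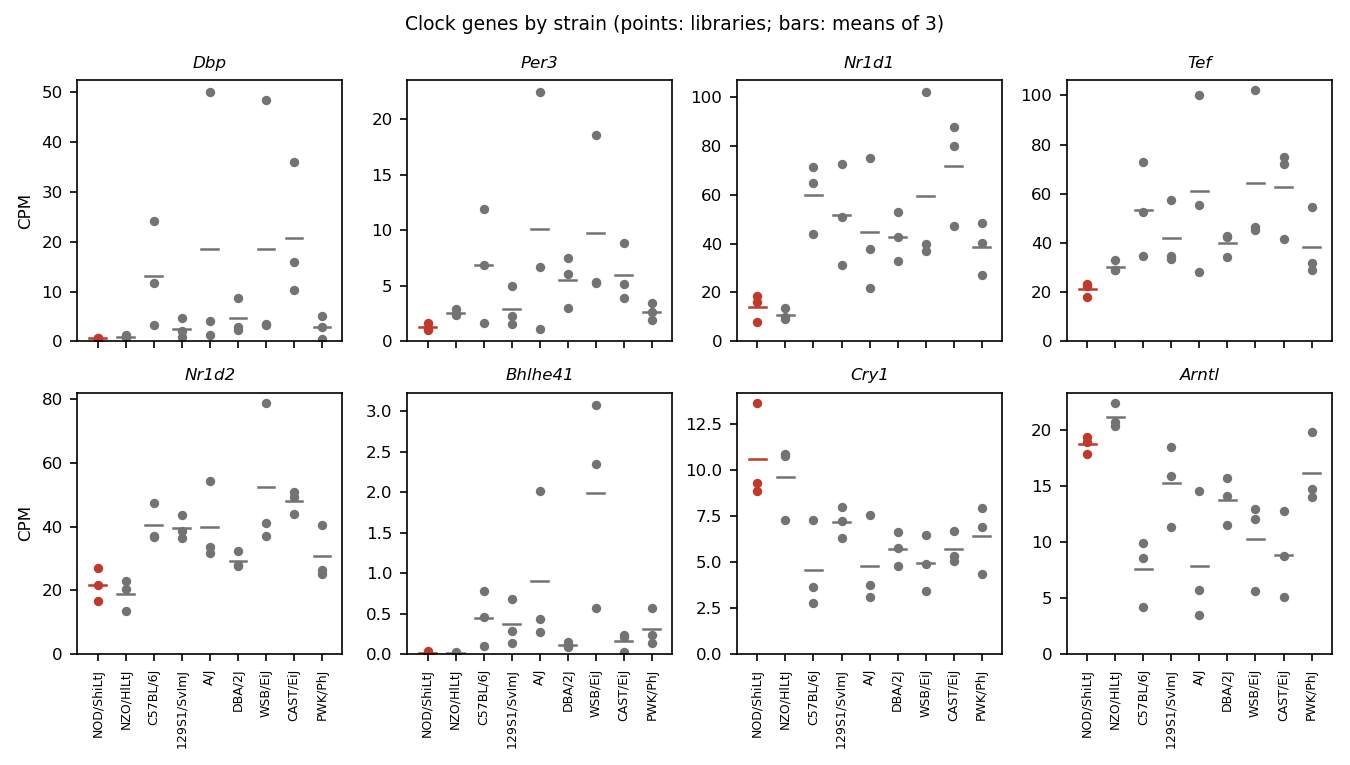
CPM of 8 clock genes by strain, with a point for each library and a bar at the mean of 3. NOD/ShiLtJ (red) and NZO/HlLtJ are low for Dbp, Nr1d1 and Tef and high for Cry1 and Arntl, and several other strains spread widely.

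Of 22 cell cycle genes tested, 8 were higher, 0 lower and 14 not called, with a median log2 fold change of 1.11 (edgeR; 14 higher and 0 lower at an unadjusted p under 0.05, 6 higher and 0 lower by DESeq2, 3 and 0 by limma). The unadjusted threshold was passed by 3945 of all 14482 genes tested, in either direction. Cdkn1a, the inhibitor p21 that halts the cycle, had 13.99, 28.7 and 24.01 CPM against 0.181 through 3.64 to 23.6 CPM (2.70 ± 0.35, edgeR adjusted p 3.78e-06). The replication helicase gene Mcm6 had 13.3, 8.52 and 5.54 CPM against 0.598 through 2.72 to 11.1 CPM (1.97 ± 0.32), and NZO/HlLtJ was close at 8.62 ± 2.43 CPM (SD, n = 3). The proliferation marker Mki67, at 6.72, 2.60 and 1.92 CPM, was matched by DBA/2J at 3.46 ± 2.96 CPM, and Top2a, at 2.43 ± 1.84 CPM, by DBA/2J at 2.41 ± 1.76 CPM. Replicate 1 was highest of the NOD/ShiLtJ libraries for Mcm6, Mki67 and Top2a, and without it 2 cell cycle genes passed. Only Cdkn1a and Mcm6 were called against 5 or more strains singly among the genes described here. With the macrophage and endothelial covariates the count was 15, and against the 5 other classical strains it was 2. Those fits called 2763 and 1567 of 14482 genes in all, 61.7% and 57.6% of them higher. The summed level of the list was 168, 136 and 90.03 CPM in NOD/ShiLtJ against 35.2 to 134.5 CPM in the others, so that replicate 3 lay inside their range.

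Sex-dependent liver genes were called in both directions. In the list of 28 sex-dependent genes 8 were higher and 7 lower, with a median of 0.07. Cyp3a41a, a female-specific P450, had 354, 614 and 56.7 CPM in NOD/ShiLtJ against 487 through 2669 to 7960 CPM (-2.95 ± 0.49, edgeR adjusted p 0.000101), and was called against all 8 strains, but replicate 2 lay above the lowest library of the others. Cyp2a4, at 489, 479 and 265.5 CPM, Cyp3a44, at 114, 130.4 and 12.1 CPM, and Sult2a1 were lower as well, and replicate 3 was lowest for each of these female-biased genes. Other female-biased genes were higher, such as Sult3a1 (1.49 ± 0.17) and Hao2 (1.57 ± 0.28). Of male-biased genes, the organic anion carrier Slco1a1 had 545, 535 and 641 CPM against 9.37 through 112 to 637 CPM (2.30 ± 0.36, edgeR adjusted p 4.81e-05). Hsd3b5, a steroid reductase, had 33.5, 22.3 and 22.7 CPM against 0.046 through 1.65 to 28.8 CPM (3.61 ± 0.40). WSB/EiJ overlapped NOD/ShiLtJ for Slco1a1, at 406 ± 215 CPM, and PWK/PhJ for Hsd3b5, at 21.5 ± 6.33 CPM (SD, n = 3 each). Elovl3 was also higher, and Cyp4a12b, C6 and Susd4 lower. Apart from Hao2, Elovl3, C6 and Susd4, the genes named here had divided reads in 18 to 27 libraries.

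Other drug-metabolizing enzymes moved in both directions. Of 43 xenobiotic P450 genes, 11 were higher and 9 lower, with a median of 0.13. Cyp2c29, an abundant P450, had 8865, 11724 and 9249 CPM against 1788 through 3423 to 10589 CPM (1.37 ± 0.21, edgeR adjusted p 3.65e-05). Cyp2b10, the standard target of the receptor CAR, had 596, 886 and 480.3 CPM against 30.1 through 157 to 898 CPM (2.14 ± 0.31). Cyp3a13, with whole counts, was lower at 51.2, 55.0 and 56.6 CPM against 41.4 through 196 to 504 CPM (-1.66 ± 0.22). Within the Cyp3a subfamily, Cyp3a16, Cyp3a25, Cyp3a41a, Cyp3a41b and Cyp3a44 were lower as well, while Cyp3a11 (0.89 ± 0.28) and Cyp3a59 (1.56 ± 0.18, with 129S1/SvImJ at 1.31 CPM) were higher. Against the 5 other classical strains alone, 7 P450 genes were higher and 7 lower. Cyp2b9 was called higher (1.05 ± 0.19) although its mean, 607 CPM, equalled the mean of the other strains, with 129S1/SvImJ near 0. Apart from Cyp3a13, the P450 genes named here had divided reads in 22 to 27 libraries.

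Of 46 glutathione and conjugation genes, 10 were higher and 3 lower, with a median of 0.11, and the summed level was highest in NOD/ShiLtJ of the 9 strains at 12027 to 13576 CPM against 8955 to 12997. Gstm3 had 108, 171 and 129.9 CPM against 0.200 through 19.2 to 127 CPM (4.02 ± 0.27), a fold that rests on NZO/HlLtJ, CAST/EiJ and PWK/PhJ at 0.235 to 1.28 CPM. Gstp1 (1.07 ± 0.18), Gstm1 (1.07 ± 0.18) and Gsta3 (1.04 ± 0.13), which join glutathione to electrophiles, rose by similar amounts, and for Gstp1 all 3 NOD/ShiLtJ libraries, 236 to 277 CPM, were above all others. Gsta2 (-1.67 ± 0.29), Glo1 (-1.07 ± 0.13) and Sult2a1 were lower. Reads of the genes named here other than Gsta3 were divided in all 27 libraries.

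Of 24 genes of cholesterol synthesis and uptake, 5 were higher, 0 lower and 19 not called, with a median of 0.58 (edgeR; 12 higher and 0 lower at an unadjusted p under 0.05, and 5 and 0 by DESeq2 and by limma). Among all 14482 genes tested, 3945 passed the unadjusted threshold in either direction. Hmgcs1, which commits acetyl units to the pathway, had 263, 409.8 and 427 CPM against 45.6 through 122 to 441 CPM (1.47 ± 0.27, edgeR adjusted p 0.000286). C57BL/6J stood as high for Hmgcs1, at 368 ± 76.3 CPM (SD, n = 3), and without that strain 8 cholesterol genes passed. Fdps (1.57 ± 0.33), Pmvk (1.26 ± 0.17), Idi1 (1.13 ± 0.33) and Mvk (0.85 ± 0.27), enzymes on the way to farnesyl diphosphate, were the other 4, with divided reads for Fdps in 18 and for Idi1 in 27 libraries. Mvd, which acts between Pmvk and Idi1, was not called (1.14 ± 0.42, adjusted p 0.0739), and Mvk lost its call in 7 of 46 alternative fits. The count was 3 without NOD/ShiLtJ replicate 2 or replicate 3, 13 without WSB/EiJ replicate 2, 3 without CAST/EiJ and 2 against the 5 other classical strains.

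Of 21 lipogenesis genes none was called (edgeR; 1 higher and 0 lower at an unadjusted p under 0.05, 0 by DESeq2 and limma). Fatty acid oxidation had 4 lower and 0 higher of 27 with a median of -0.20: the mitochondrial carnitine transferase Cpt1a (-0.55 ± 0.18), the pantetheinase Vnn1 (-1.51 ± 0.31), and Cyp4a10 (-1.01 ± 0.29) and Cyp4a31, both with divided reads in all 27 libraries. The lower count was 2 without NOD/ShiLtJ replicate 1 or replicate 3, and Cpt1a lost its call in 9 of 46 alternative fits. Vldlr, a lipoprotein receptor, was lower at 2.27, 1.70 and 1.57 CPM against 0.763 through 8.46 to 29.9 CPM (-1.94 ± 0.38).

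Of 21 gluconeogenesis and glycolysis genes, 1 was higher and 3 lower with a median of -0.03, and 1 was lower without any 1 of the NOD/ShiLtJ libraries. Fbp1, a rate-controlling enzyme of gluconeogenesis, was below all other libraries at 404, 362 and 371 CPM against 428 through 611 to 1117 CPM (-0.75 ± 0.17, edgeR adjusted p 0.00236), and the glucose carrier Slc2a2 changed by -0.62 ± 0.18. Values for Pck1 (0.25 ± 0.39) and G6pc (0.14 ± 0.28) did not pass the test. Of 25 insulin signalling genes and targets, 2 were higher and 3 lower, but none was higher without NOD/ShiLtJ replicate 1 and none lower without replicate 3. Trib1 (-1.09 ± 0.29) and Socs2 (1.06 ± 0.36) changed most of these, and both overlapped the other libraries; Socs2 lost its call in 26 of 46 alternative fits and Trib1 in 3. Igfbp2 had 315, 472 and 235 CPM against 76.7 through 647 to 951 CPM (-0.64 ± 0.19), and Igfbp1 was at 131 ± 50.4 CPM against a mean of 162 (adjusted p 0.976). Urea cycle and amino acid genes had 6 lower and 1 higher of 34, led by the histidine-degrading enzyme Hal at 216, 175 and 203 CPM against 206 through 494 to 853 CPM (-1.29 ± 0.17). Of the urea cycle and amino acid genes, 4, 2 and 2 were lower without NOD/ShiLtJ replicate 1, 2 and 3, 0 were higher without any 1 of them, and 2 were lower against the 5 other classical strains.

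Genes at candidate loci for NOD diabetes could be tested in 12 of 22 cases, and 0 were called (edgeR; 1 higher and 2 lower at an unadjusted p under 0.05, 0 by DESeq2 and limma). Of all 14482 genes tested, 3945 had an unadjusted p under 0.05. With the marker covariates, 1 gene of this list was called lower. The list left out the MHC class II genes, of which H2-Aa and H2-Ab1 were called lower. Il2, Ctla4 and Il2ra had 0 to 1 count in each NOD/ShiLtJ library. Slc11a1, a macrophage metal transporter at such a locus, had 1.201, 1.56 and 0.976 CPM against 0.713 through 2.03 to 5.95 CPM, with a log2 fold change of -0.86 ± 0.34 (edgeR adjusted p 0.0983). Of 27 interferon response genes, 6 were higher and 0 lower with a median of 0.21 (edgeR; 9 higher and 1 lower at an unadjusted p under 0.05, 6 higher and 0 lower by DESeq2, 2 and 0 by limma). Isg15, a ubiquitin-like protein, was highest of these in fold, at 10.8, 6.65 and 5.96 CPM against 0.332 through 2.44 to 12.1 CPM (1.67 ± 0.24), with DBA/2J the highest strain. Leaving out CAST/EiJ, the lowest strain for Isg15, left 1 interferon gene, and leaving out NOD/ShiLtJ replicate 1 also left 1, while leaving out replicate 2 left 2.

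Acute phase genes had 2 higher and 3 lower of 25, and 0 lower without NOD/ShiLtJ replicate 1. Hepcidin (Hamp), the hormone that limits iron uptake, was higher at 1133, 1435 and 986 CPM against 72.2 through 616 to 1613 CPM (1.40 ± 0.24), and WSB/EiJ was at 1027 ± 507 CPM (SD, n = 3; divided reads in all 27 libraries). The metallothioneins Mt1 (-1.90 ± 0.53) and Mt2 (-2.01 ± 0.66), which bind zinc, were lower, with 11.7, 30.5 and 30.8 CPM for Mt1 against 26.5 through 80.1 to 209 CPM. Mt2 lost its call in 7 and Mt1 in 2 of 46 alternative fits.

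Secreted protease inhibitors and esterases, which are duplicated gene families, had members in both directions. Of 28 serine protease inhibitors, 9 were higher and 5 lower (3, 2 and 3 lower without NOD/ShiLtJ replicate 1, 2 and 3) with a median of -0.01, and of 16 carboxylesterases 4 were higher and 3 lower with a median of 0.28. Serpina3c had the largest fitted change, with 275.7, 236 and 320.2 CPM in NOD/ShiLtJ against 0.365 through 0.828 to 430.4 CPM (5.53 ± 0.11, edgeR adjusted p 3.90e-21). That fold rests on 5 strains with means of 0.488 to 0.926 CPM, while DBA/2J, at 279.8 ± 48.4 CPM, and WSB/EiJ, at 399 ± 42.9 CPM (SD, n = 3 each), were as high as NOD/ShiLtJ or higher. Serpina11 had 378, 434 and 399 CPM against 48.1 through 103 to 396 CPM (1.67 ± 0.14), with DBA/2J next at 313 ± 73.9 CPM. The pseudogene Serpina4-ps1, with whole counts, was at 103.7, 86.3 and 83.7 CPM against 0.825 through 4.07 to 111 CPM (3.38 ± 0.59), and single libraries of WSB/EiJ and A/J were as high. Reads were divided in all 27 libraries for Serpina3c and in 24 for Serpina11. Of the esterases, Ces2h changed most (-2.23 ± 0.28): NOD/ShiLtJ averaged 0.682 CPM and the other classical strains 0.282 to 0.641 CPM, while WSB/EiJ, CAST/EiJ and PWK/PhJ averaged 153, 54.02 and 113 CPM. Ces1g, which hydrolyses stored lipid, changed by -1.03 ± 0.22, with 162, 192 and 114 CPM in NOD/ShiLtJ and PWK/PhJ lower still. Ces1g had divided reads in 16 libraries.

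Of 8 cholangiocyte markers, 3 could be tested and all 3 were called: Sox9 had 2.79, 2.84 and 3.62 CPM, above all other libraries, which ran from 0.276 through 1.25 to 2.34 CPM (1.49 ± 0.26, edgeR adjusted p 0.000173), and Spp1 was higher (1.45 ± 0.23) and Pkhd1 lower (-0.68 ± 0.16; not called without NOD/ShiLtJ replicate 2). The summed cholangiocyte list, at 12.5 to 17.3 CPM, lay inside the 9.30 to 21.8 CPM of the others. Immediate early genes, which rise with handling of cells, had a median of -0.60 and summed to 101 to 168 CPM against 113 to 366 CPM, but Klf6 alone of 17 tested was called (-0.96 ± 0.25), and not without NOD/ShiLtJ replicate 3. Of 29 chromatin regulators, the DNA methyltransferase genes Dnmt3a (-0.43 ± 0.13) and Dnmt3b (0.71 ± 0.23) were called, in opposite directions. Neither was called without NOD/ShiLtJ replicate 2 or replicate 3, nor Dnmt3b without replicate 1, and over 46 alternative fits Dnmt3a lost its call in 4 and Dnmt3b in 8.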

How the data were processed

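Per the labels' protocols, polyadenylated RNA was made into libraries with a TruSeq kit whose name states no strand protocol, so overlapping and antisense genes are uncertain. The authors deposited estimated counts (expected counts) per Ensembl gene for 27 libraries, not scaled to depth; 11.1% of values were not whole (tolerance 1e-06). The submitters' processing notes name GRCm38 (mm10), FastQC 0.11.5 and DESeq2; the aligner, the counter and any strain genomes are not given in the sources used here. Symbols and coordinates came from GENCODE M21 (GRCm38), which named 42462 of 43346 genes.

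Counts were rounded, which changed totals by at most 0.00026%. In R 4.3.3 with edgeR 4.0.16, filterByExpr by strain kept 14482 genes with 99.97% of counts, TMM factors ran from 0.722 to 1.226, and a quasi-likelihood model with strain as the only factor was fitted to all libraries. P-values were adjusted by Benjamini-Hochberg over all genes and called under 0.05. Standard errors came from the F statistic. CPM uses TMM-scaled library sizes; intervals of counting error do not include amplification. The NOD/ShiLtJ libraries are labelled biological replicates and differed beyond counting noise (chi-square per degree of freedom 29.0 to 32.8). The model was tested on simulated data.

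Named genes were the set-apart genes averaging at least 10 CPM on the higher side (at most 10 highest and 10 lowest with whole counts, which gave 7 and 10, at most 4 and 4 of the others, which gave 1 and 4, and the 8 with the largest CPM difference), up to 6 called genes per list with the largest change, and Hc, H2-Ea and Slc11a1. Some genes are not reported here. Among set-apart genes, but not in the lists, the rule left out predicted genes, pseudogenes and the Mup family. Not every gene it allows is described. Other names in the text were added after their values were seen: set-apart genes outside this rule, list members given as values below the threshold or to complete a group, and markers. The members and lists were chosen with earlier results of these data known. Alternatives were DESeq2 1.42.0, median-of-ratios factors, other filters, the replicate number as a block, unrounded counts, references without each strain or with the 5 other classical strains, a model of 2 groups, cell marker covariates, leaving out each library and, after seeing the data, a GC trend removed (99.1% of genes had a GC value) and limma 3.58.1.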

Additional observations from a re-analysis of the deposited data

How the results depend on the processing

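Calls rest on a shared estimate of spread from 9 strains. When all 24 other libraries formed a single group, so that strain differences counted as noise, 49 genes were called, 24 higher and 25 lower, and 33 of the 43 set-apart genes were among them. The number set apart grew with fewer strains in the reference: 28 higher genes without NZO/HlLtJ, 25 without A/J, 26 without DBA/2J, 26 without CAST/EiJ, and 69 higher and 68 lower against the 5 other classical strains. Leaving out each library in turn gave 1329 (without NOD/ShiLtJ replicate 2) to 2332 (without C57BL/6J replicate 1) called genes, 878 to 1456 higher and 451 to 876 lower, with 10 to 18 set apart higher and 20 to 31 lower. Without NOD/ShiLtJ replicate 1 and replicate 3 the totals were 1433 and 1380, with 514 and 477 lower. DESeq2 called 2406 genes, limma 2236, the fit without a filter 2142 and the fit with marker covariates 2763.

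Directions reversed, without a call, for Alas2 (-0.23), Ifi44 (-0.080), Ces2h (0.73) and Ces2b (0.35) against the 5 other classical strains, and for Ifi44 (-0.19), Fitm1 (-0.089) and Sult5a1 (-0.039) in the model of 2 groups; the cause was not tested. With the replicate number as a block, 1796 genes were called, and 35 of the 43 genes stayed set apart; all 43 stayed called. The numbers share no label for litter or day. Across 19 same-numbered pairs with NOD/ShiLtJ, deviations from strain means correlated at -0.12 to 0.15, and 4 pairs exceeded 0.1. Of 19 libraries, 7 correlated best with their own number. At 17015956 counts or more, genes under about 3 counts, 0.105 CPM in NOD/ShiLtJ, carry no fold.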
